A study of Gallus gallus with 6 samples.

Results

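The Toll-like receptors of the chicken and the proteins that serve them were followed through 18 probe sets, which were all probe sets that the platform annotation gives to TLR2A, TLR3, TLR4, TLR5, TLR7, TLR15, TLR21, MYD88 or UNC93B1 alone. The array holds 38439 probe sets besides its controls, which name 13009 genes, and all 9 listed genes had at least 1. One further probe set, annotated to TLR2 and TLR2A together, was not counted and is described beside TLR2A. The samples were 6 single-colour arrays of DT40 cells, a chicken B cell line derived from a bursal lymphoma and used for gene targeting, with 2 arrays in each of 3 groups. The groups are wild type, K11, in which the labels say endogenous H1 was knocked out, and K11-5, which they label as complete H1 null. Histone H1 is the linker histone that binds DNA where it enters and leaves the nucleosome. Cells of all groups, wild type included, were cultured with 100 nM Z-VAD-FMK, an inhibitor of caspases, at 39.5 °C in serum-supplemented medium, and total RNA was hybridized. How K11 and K11-5 are related, and whether either line is 1 clone, is not stated in these sources. No label says that a group's arrays stand for separate cultures, so the p-values cover only how far these arrays lie apart, which can be technical variation.

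Toll-like receptors are membrane proteins that bind molecules typical of microbes and signal through a TIR domain on their cytoplasmic side. The chicken TLR2 proteins bind bacterial lipopeptides together with TLR1 proteins, TLR4 with its partner LY96 binds lipopolysaccharide and TLR5 binds flagellin. TLR3 binds double-stranded RNA, TLR7 binds single-stranded RNA and TLR21, which chickens use in place of the mammalian TLR9, binds unmethylated CpG DNA. TLR15 is found in birds and reptiles and is activated by microbial proteases. MYD88 is the adaptor that links most of these receptors to IRAK kinases, TRAF6 and NF-kB, and in mice and humans UNC93B1 carries the nucleic acid receptors from the endoplasmic reticulum to endosomes. Bird B cells express several of these receptors.

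Values are normalized signals, the deposited intensities after quantile normalization, in which array controls for bacterial and tag sequences gave a background of 11.4. The signals of different probe sets cannot be set against each other, so levels are compared across groups within a probe set. Between arrays the trimmed mean of the deposited signals varied from 48.0 to 77.7, by a factor of 1.62, and arrays of a group correlated at 0.929 to 0.952. Actin control signals gave 3' to 5' ratios of 8.10 and 7.15 for wild type, 9.23 and 9.31 for K11 and 6.29 and 5.28 for K11-5, so the groups also differed in this measure of RNA and labelling quality, whose part in the results was not tested. Of the linker histone genes, HIST1H111L had a bright probe set, at 1645 and 2186 for wild type, 5810 and 1597 for K11 and 4793 and 4442 for K11-5. HIST1H111L was higher in both K11-5 arrays than in either wild type array, and the K11 arrays lay on either side of wild type. The sources do not say whether its probes lie in a deleted part, so the groups are named only as the labels name them. Among markers of the labelled cell type, CD79B, a chain of the B cell receptor, was at 1052 and 1528 for wild type, 1327 and 1353 for K11 and 164 and 21.9 for K11-5. PAX5, a B cell transcription factor, had signals of 3.76 to 29.99, a range that pools the groups. In K11-5 against wild type all 10 tested B cell markers, PAX5 among them, had an unadjusted p under 0.05 from limma. Of all tested genes 23.4% did.

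Of the 18 member probe sets, 5 were above background in every array, those of TLR7, TLR21, UNC93B1 and both probe sets of MYD88, which is 27.8% of them against 34.6% of all probe sets. In 10 the signal passed background in some arrays, and in 3, of TLR3, TLR5 and TLR21, in none. The filter on dim probe sets, a mean signal of at least 7.04, left 11 member probe sets from 8 genes for testing, and TLR5 had none. Past the threshold, an adjusted p under 0.05 from limma with Benjamini-Hochberg adjustment over 23063 probe sets, TLR7 and TLR2A rose in K11 against wild type, TLR7 fell in K11-5 against wild type, and TLR7 and TLR2A were lower in K11-5 than in K11. MYD88, UNC93B1, TLR21, TLR15, TLR3 and TLR4 passed in no comparison.

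In K11 against wild type 2 of the 11 tested members rose and none fell (limma, with 2 at an unadjusted p under 0.05), where 7.85% of all tested probe sets passed, 3.8% upward and 4.05% downward. In K11-5 against wild type none rose and 1 fell, with 4 at an unadjusted p under 0.05, where 5.57% of all tested probe sets passed, 2.64% upward and 2.92% downward. In K11-5 against K11 none rose and 2 fell, with 3 at an unadjusted p under 0.05, where 3.02% of all passed, 1.16% upward and 1.86% downward. The median log2 difference of the tested members was 0.19, -0.59 and -0.77 in these comparisons, and the median over all tested probe sets was -0.014, -0.0023 and 0.025. At an unadjusted p under 0.05 from limma stood 21.9%, 19.2% and 17.8% of all tested probe sets in the same order of comparisons. These comparisons share arrays, 2 by 2, so their counts do not stand for separate experiments. With counts of 1 or 2, the members' shares rest on TLR7 and TLR2A alone.

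TLR7, the receptor for single-stranded RNA, had the largest difference between the lines among the 11 tested members. Its probe set, on chromosome 1 of assembly GRCg7b, had signals of 47.6 and 69.3 for wild type, 136 and 190.6 for K11 and 17.6 and 16.4 for K11-5. The groups did not overlap: both K11 arrays lay above both wild type arrays, and both K11-5 arrays lay near background, below all others. Because each array measures RNA from a whole culture, fewer cells that express a gene and less RNA per cell cannot be told apart, here and in what follows. TLR7 was 2.74-fold higher in K11 than in wild type, a log2 difference of 1.46 ± 0.30 (SE, 2 arrays a group, limma adjusted p = 0.0170). It was 3.13-fold lower in K11-5 than in wild type, with a log2 difference of -1.65 ± 0.30 (limma adjusted p = 0.0126). Between the lines it was 8.59-fold lower in K11-5, with a log2 difference of -3.10 ± 0.30 (limma adjusted p = 0.00144), and the 95% interval of this difference ran from -3.76 to -2.44. The order of the levels was therefore K11, wild type, K11-5, with both neighbouring pairs past the threshold.

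The difference between K11-5 and K11 for TLR7 stayed past the threshold when each array in turn was left out, with log2 differences from -3.37 to -2.90. The other TLR7 calls depended on single arrays. The fall in K11-5 against wild type had a limma adjusted p of 0.0858 when K11-5 replicate 2 was left out and 0.166 when wild type replicate 2 was. The rise in K11 had limma adjusted p-values of 0.169 without wild type replicate 1, 0.0675 without wild type replicate 2 and 0.0615 when K11 replicate 2 was left out.

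TLR2A, a receptor for bacterial lipopeptides, was high in K11 alone by its own probe set. This probe set, on chromosome 4, had signals of 20.6 and 17.1 for wild type, 102.5 and 109.7 for K11 and 23.7 and 11.04 for K11-5. The K11 arrays lay far above the other 4, and the K11-5 arrays lay on either side of those of wild type. TLR2A was 5.21-fold higher in K11 than in wild type, a log2 difference of 2.38 ± 0.37 (limma adjusted p = 0.0055), and 5.90-fold lower in K11-5 than in K11, a log2 difference of -2.56 ± 0.37 (limma adjusted p = 0.00913). Between K11-5 and wild type the log2 difference was -0.18 (limma adjusted p = 0.853). Its 95% interval ran from -0.998 to 0.64, so the missing call does not show that the levels were equal. The rise in K11 had a limma adjusted p of 0.0561 without wild type replicate 2, and the difference between the lines 0.0563 without K11-5 replicate 2.

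The probe set that the annotation gives to both TLR2 and TLR2A followed another pattern. Its signals were 97.3 and 119.5 for wild type, 102.6 and 114.7 for K11 and 19.7 and 0.93 for K11-5. Wild type and K11 overlapped, and both K11-5 arrays lay below them, 1 above and 1 below background. It was lower in K11-5 than in wild type (fitted log2 difference -3.78 ± 0.70, limma adjusted p = 0.0139). It was also lower than in K11 (fitted log2 difference -3.79 ± 0.70, limma adjusted p = 0.0224). The 95% intervals ran from -5.34 to -2.23 and from -5.35 to -2.24. With 1 K11-5 array above background, no lower bound of the fold is given. Between K11 and wild type the log2 difference was 0.0077, with a 95% interval from -1.55 to 1.56 (limma adjusted p = 0.997). Leaving out K11-5 replicate 1 took the difference from wild type to -5.25 and leaving out K11-5 replicate 2 took it to -2.34. The call against wild type was lost without either wild type array (limma adjusted p of 0.0658 and 0.113), and the call against K11 without either K11 array (0.0775 and 0.0627). The probe sets thus disagreed on wild type, which sided with K11-5 for the TLR2A probe set and with K11 for the shared one, and which transcripts each detects cannot be told from the annotation. In both, K11-5 was lower than K11.

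**Figure D1:**
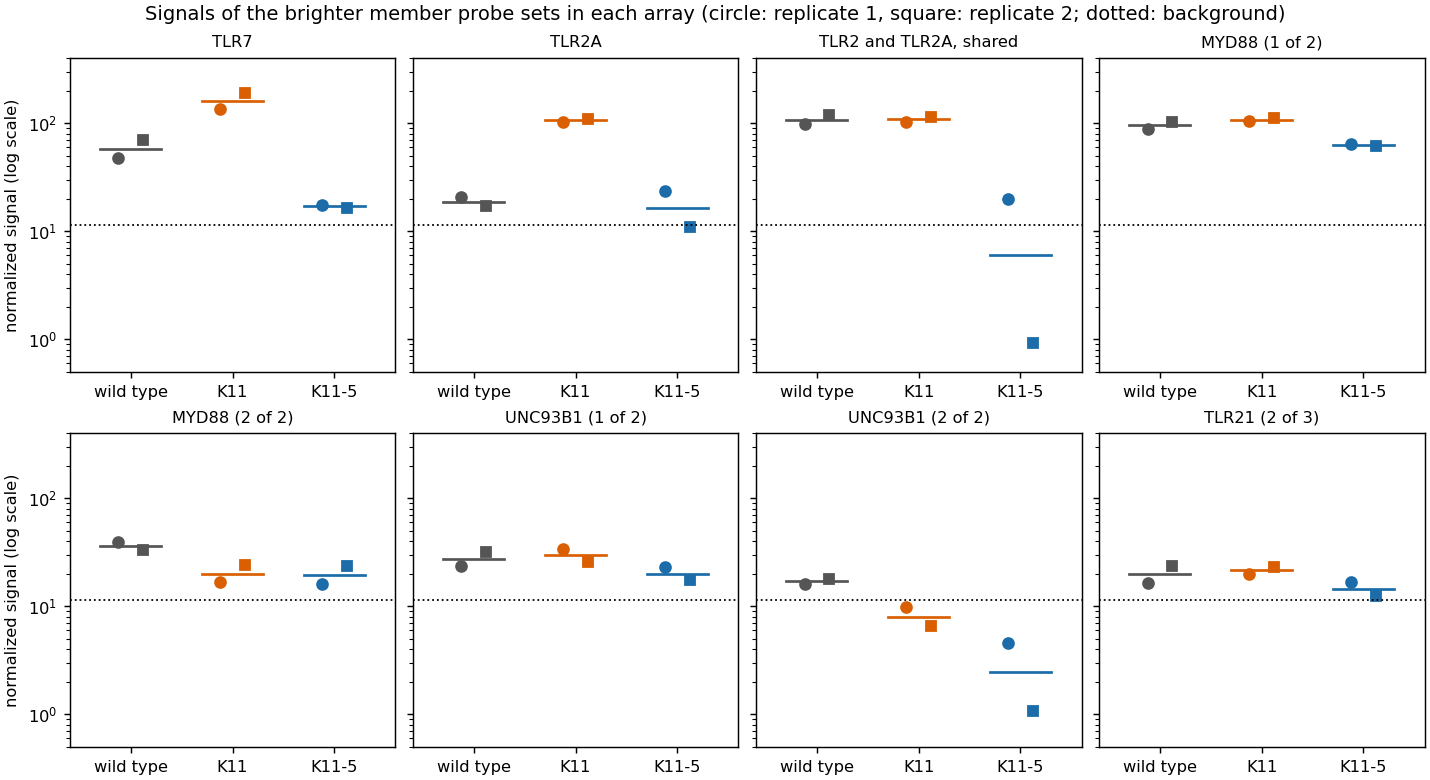
Normalized signal (log scale) of 8 probe sets in each of the 6 arrays, with circles for replicate 1, squares for replicate 2, a bar at the group mean of the log2 values and a dotted line at the background of 11.4. TLR7 is ordered K11, wild type, K11-5 without overlap, TLR2A is high in both K11 arrays, and the probe set shared by TLR2 and TLR2A is low in both K11-5 arrays.

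MYD88, the adaptor that most Toll-like receptors share, had 2 probe sets above background in every array, on chromosome 2. The first had signals of 88.8 and 102.3 for wild type, 104.3 and 111.7 for K11 and 64.1 and 60.8 for K11-5. Both K11-5 arrays lay below the other 4, and the differences missed the threshold at -0.59 ± 0.23 against wild type (limma adjusted p = 0.186) and -0.77 ± 0.23 against K11 (limma adjusted p = 0.111). Their unadjusted p-values from limma were 0.0271 and 0.00732. The second probe set had signals of 39.6 and 32.9 for wild type, 16.8 and 24.0 for K11 and 15.9 and 23.8 for K11-5. Here both lines lay below wild type and overlapped each other, with log2 differences of -0.83 ± 0.36 in K11-5 and -0.78 ± 0.36 in K11 (limma adjusted p of 0.251 and 0.245). The probe sets disagreed on K11, which lay just above wild type by the first and overlapped K11-5 by the second. The tested genes of chromosome 2 had a median log2 difference from wild type of -0.37 in K11-5 and -0.39 in K11. Relative to these medians, the first MYD88 probe set stood at -0.23 in K11-5 and 0.56 in K11, and the second at -0.46 and -0.40.

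UNC93B1, the escort of the nucleic acid receptors, had 2 tested probe sets, on chromosome 5. The brighter one had signals of 23.8 and 32.0 for wild type, 34.1 and 25.9 for K11 and 23.0 and 17.4 for K11-5, with log2 differences from wild type of -0.43 ± 0.35 in K11-5 and 0.10 ± 0.35 in K11. The dimmer one had 16.1 and 18.1 for wild type, 9.79 and 6.53 for K11 and 4.54 and 1.08 for K11-5. Only its wild type arrays were above background, and the fitted log2 difference of K11-5 from wild type was -2.09 ± 0.70 (limma adjusted p = 0.126, unadjusted p = 0.0138). With the K11-5 mean below background, the signals give only a lower bound of 1.43-fold. By both probe sets the K11-5 arrays were the lowest, though for the dimmer one those of K11 were below background too. Neither probe set passed the threshold in any comparison.

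TLR21, the chicken receptor for CpG DNA, was detected by 1 of its 3 probe sets, on chromosome 11. Its signals were 16.6 and 23.5 for wild type, 20.0 and 23.2 for K11 and 16.7 and 12.5 for K11-5. The K11-5 arrays lay below those of K11 and overlapped wild type, with a log2 difference of -0.41 ± 0.39 against wild type (95% interval -1.28 to 0.47, limma adjusted p = 0.640) and -0.52 ± 0.39 against K11 (95% interval -1.40 to 0.36, limma adjusted p = 0.542). In K11 against wild type it was 0.11 ± 0.39. The median log2 difference of tested chromosome 11 genes was 0.49 in both lines, so TLR21 stood at -0.90 in K11-5 and -0.37 in K11 relative to its chromosome. Its other probe sets had signals of 0.94 to 5.57 and of 0.92 to 11.8.

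TLR3, TLR4, TLR5 and TLR15 had signals at or near background, and a difference between groups was hardly measurable for them. TLR3, the receptor for double-stranded RNA on chromosome 4, had 1 tested probe set, with signals of 1.63 and 8.41 for wild type, 4.92 and 5.07 for K11 and 11.5 and 13.8 for K11-5. The K11-5 arrays were the highest and just above background, and the log2 difference from wild type was 1.25 ± 0.79 (limma adjusted p = 0.447). Its untested probe sets had signals of 0.43 to 6.24 and of 0.88 to 19.4. TLR4, on chromosome 17, had signals of 1.11 and 10.4 for wild type, 10.6 and 7.38 for K11 and 3.04 and 27.2 for K11-5. A single K11-5 array was above background, the groups overlapped and no difference passed. TLR5, the flagellin receptor on chromosome 3, had no tested probe set, and its signals ran from 0.69 to 6.97 in the first and from 0.86 to 12.4 in the second.

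TLR15, on chromosome 3, had 2 tested probe sets. The first had 7.28 and 11.6 for wild type, 9.31 and 20.3 for K11 and 10.2 and 0.56 for K11-5, and the second 3.28 and 13.5 for wild type, 16.5 and 17.7 for K11 and 8.66 and 1.30 for K11-5. In the second, both K11 arrays were above background and above all K11-5 values, with a log2 difference of K11-5 from K11 of -1.68 ± 0.80 (95% interval -3.46 to 0.097, limma adjusted p = 0.308). In the first the groups overlapped. The third, untested, ran from 1.06 to 13.1 with its highest values in K11-5, against the order of the other probe sets.

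**Figure D2:**
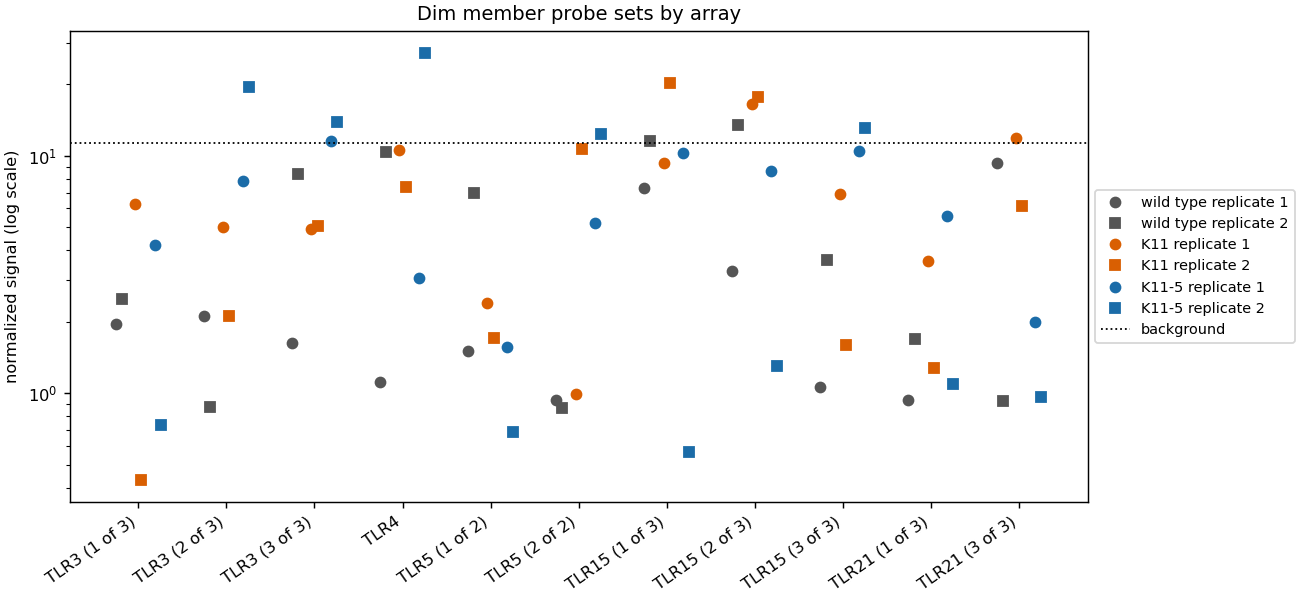
Normalized signal (log scale) of the 11 member probe sets near background, by array, with group by colour and replicate by shape and the background of 11.4 dotted. Most points lie below the dotted line, and the arrays of a group are often far apart.

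**Figure D3:**
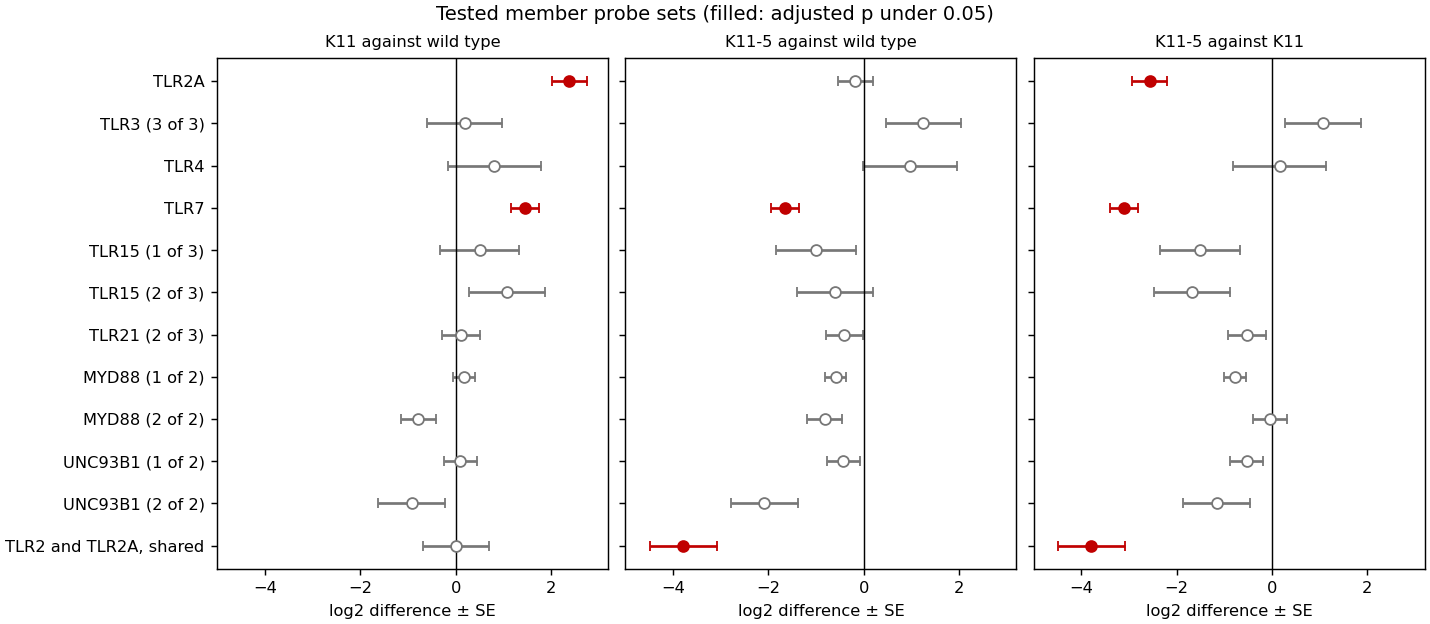
Log2 difference with its standard error for the 11 tested member probe sets and the probe set shared by TLR2 and TLR2A, in the 3 comparisons, with filled points where the adjusted p was under 0.05. TLR7 is filled in every panel, TLR2A in the panels that involve K11, and the shared probe set in those that involve K11-5.

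By a rule on the likeness of patterns, genes were compared with each called member over the 6 arrays, each probe set centred on its own mean. Genes with placeholder names (LOC, clone or open reading frame) were skipped in the ranking. Nearest to TLR7, out of 10003 genes compared, were CYB561A3, NRROS and EVI2A. Their root mean square differences from TLR7 were 0.26, 0.28 and 0.37 on the log2 scale, where TLR7 itself varied by 1.28 about its mean. CYB561A3, for example, had signals of 279.0 and 343.1 for wild type, 732.3 and 721.0 for K11 and 130.5 and 102.2 for K11-5. This is the same order of groups as for TLR7. NRROS was below background in both K11-5 arrays, at 4.17 and 2.89. Nearest to TLR2A, which varied by 1.20, were ENDOUL, CMYA5 and SEC14L5 at 0.23, 0.27 and 0.28. ENDOUL had signals of 9.39 and 4.99 for wild type, 47.2 and 43.6 for K11 and 13.3 and 5.00 for K11-5, with its values outside K11 near or below background. CMYA5 and SEC14L5 were below background in all arrays outside K11. With 6 arrays in 3 groups, a small difference says mainly that the group means are ordered alike.

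Around the members, a list of 73 other genes of Toll-like receptor signalling had 57 genes on the array and 51 tested, each by its brightest tested probe set. In K11 against wild type 4 rose and 2 fell, with 10.4% of all tested genes past the threshold, 5.18% upward and 5.23% downward. In K11-5 against wild type 1 rose and 2 fell, with 7.27% of all genes past it, 3.58% upward and 3.69% downward. In K11-5 against K11 1 rose and 5 fell, with 4.1% of all genes past it, 1.63% upward and 2.47% downward. The median log2 differences of the list were 0.17, 0.040 and -0.056, against 0.0054, 0.028 and 0.032 over all genes. These splits depended on the scaling. On the deposited scale 0 rose and 10 fell in K11 (limma), 1 rose and 4 fell in K11-5 against wild type, and 5 were higher and 3 lower in K11-5 than in K11. With arrays centred on their medians the splits were 1 and 10, 1 and 4, and 6 and 4. Over all tested probe sets the calls in K11 went from 877 up and 933 down to 320 up and 2646 down on the deposited scale and 464 up and 2990 down with centring, as the median log2 difference moved from -0.014 to -0.32 and -0.26. In K11-5 against wild type they went from 610 up and 674 down to 314 and 824, and 450 and 1166, with the median at -0.12 under both. Between K11-5 and K11 they went from 268 up and 429 down to 788 and 254, and 933 and 329, with medians of 0.22 and 0.16. The member counts and their directions were the same under both as after quantile normalization.

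Of the receptor cofactors and chaperones, 6 were tested. Of these 1 fell in K11 and 2 fell in K11-5 against wild type, and 1 was lower in K11-5 than in K11. Of all tested genes 10.4%, 7.27% and 4.1% passed in these comparisons. LY96, the lipopolysaccharide-binding partner of TLR4, had signals of 1447 and 1552 for wild type, 1426 and 1063 for K11 and 560.5 and 449.9 for K11-5. Both K11-5 arrays lay below all others, with a log2 difference of -1.57 ± 0.18 against wild type (limma adjusted p = 0.00133) and -1.29 ± 0.18 against K11 (limma adjusted p = 0.00704, and 0.0814 without K11-5 replicate 2). LY96 lies on chromosome 2, whose median was -0.37. HSP90B1, the endoplasmic reticulum chaperone that folds Toll-like receptors in mice, had 3303 and 2237 for wild type, 922.6 and 820.1 for K11 and 1187 and 1323 for K11-5. It was lower in both lines, by a log2 difference of -1.64 ± 0.18 in K11 (limma adjusted p = 0.00112) and -1.12 ± 0.18 in K11-5 (limma adjusted p = 0.0078, lost without wild type replicate 1 or either K11-5 array). Its second probe set passed in K11 at -1.59 and stood at -0.55 in K11-5, where it did not pass.

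Among the receptors outside the members, TLR1A, the partner of TLR2 proteins, had 9.25 and 7.91 for wild type, 63.9 and 17.4 for K11 and 8.38 and 6.91 for K11-5. Its K11 arrays were the highest and far apart, and the log2 difference of 1.76 ± 0.59 in K11 did not pass (limma adjusted p = 0.107). Of 2 probe sets annotated to TLR1A and TLR1B together, 1 had signals of 13.2 and 12.7 for wild type, 45.0 and 35.2 for K11 and 10.4 and 29.96 for K11-5. In both the K11 arrays were the highest.

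Of the adaptors, 5 were tested, and PIK3AP1 alone passed, in K11 against wild type and in K11-5 against K11. Of all tested genes 10.4% and 4.1% passed in these comparisons. PIK3AP1, a B cell adaptor that links receptors to phosphoinositide 3-kinase, had 188.0 and 289.1 for wild type, 480.3 and 662.7 for K11 and 172.1 and 86.6 for K11-5, the order of groups seen for TLR7. It rose in K11 by 1.27 ± 0.33 (limma adjusted p = 0.0423, lost without any 1 of the wild type or K11 arrays) and was lower in K11-5 than in K11 by a log2 difference of -2.19 ± 0.33 (limma adjusted p = 0.0102, and 0.0814 without K11-5 replicate 2). TIRAP, TICAM1 and SARM1 did not pass, TICAM2 was not on the array and SIGIRR was not tested. TIRAP, which brings MYD88 to receptors at the membrane, had 123.9 and 87.9 for wild type, 124.3 and 91.7 for K11 and 174.2 and 240.1 for K11-5, with a log2 difference of 0.96 ± 0.27 in K11-5 (limma adjusted p = 0.0704). TICAM1, the adaptor of TLR3, ran from 104.4 to 154.8 over all arrays, and SARM1, a TIR protein that degrades NAD, from 1.25 to 18.4.

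Of the 24 tested kinases and ligases, 1 passed in K11, 2 in K11-5 against K11 and none in K11-5 against wild type, beside 10.4%, 4.1% and 7.27% of all tested genes. In K11-5 against wild type 5 of the 24 had an unadjusted p under 0.05 from limma, beside 23.4% of all genes. TRAF3, a ligase that serves TICAM1 and restrains non-canonical NF-kB, had 46.4 and 42.0 for wild type, 88.9 and 91.2 for K11 and 33.7 and 22.2 for K11-5. It was lower in K11-5 than in K11 by a log2 difference of -1.65 ± 0.29 (limma adjusted p = 0.0182, lost without K11 replicate 1 or K11-5 replicate 2), and its other tested probe sets stood at -0.56 and -1.60 and did not pass. PELI3, a ligase that acts on IRAK proteins, stood at -1.15 ± 0.26 in the same comparison (limma adjusted p = 0.0485, lost without K11 replicate 1 or either K11-5 array), with -0.42 in its second probe set. RIPK1, a kinase of death receptor and TICAM1 signalling, fell in K11 by a log2 difference of -0.88 ± 0.23 (limma adjusted p = 0.0486), lost when any 1 array of any group was left out. RIPK1 lies on chromosome 2. In a fit on values taken relative to each array's chromosome median, its log2 difference was -0.37 (limma adjusted p = 0.401). The kinases nearest to MYD88 did not pass in any comparison: IRAK2 had signals from 172.4 to 260.1, IRAK4 from 46.6 to 98.8 and the ligase TRAF6 from 59.2 to 120.9. IRAK1BP1, a binding partner of IRAK1, ran from 103.9 to 143.4.

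Of the 9 tested NF-kB and IRF genes, 2 rose in K11, where 5.18% of all tested genes rose. NFKB1, which encodes a DNA-binding subunit of NF-kB, had 129.2 and 129.5 for wild type, 319.0 and 307.7 for K11 and 148.3 and 157.5 for K11-5. The K11 arrays stood above all others, by 1.26 ± 0.19 over wild type (limma adjusted p = 0.00488, lost without either wild type array), and K11-5 was lower than K11 by a log2 difference of -1.03 ± 0.19 (limma adjusted p = 0.0226, lost without any 1 array other than K11 replicate 2). NFKBIA, the inhibitor that NF-kB induces, rose in K11 from 103.4 and 113.1 to 203.9 and 183.8, by 0.83 ± 0.21 (limma adjusted p = 0.0383, lost without any 1 array other than K11 replicate 2). On the deposited scale the NFKB1 and NFKBIA rises did not pass, with limma adjusted p-values of 0.0729 and 0.464, and the NFKB1 difference between K11-5 and K11, at -0.73, did not pass either (limma adjusted p = 0.145). Of the 3 tested genes of the death domain branch, only CASP8 passed against wild type, in K11 and in K11-5. Of all tested genes 10.4% and 7.27% passed in these comparisons. CASP8, an apoptosis protease that shares partners with RIPK1, had 126.6 and 92.9 for wild type, 209.0 and 228.9 for K11 and 323.2 and 371.4 for K11-5. It rose by 1.00 ± 0.22 in K11 (limma adjusted p = 0.0210, lost without either wild type array) and by 1.66 ± 0.22 in K11-5 (limma adjusted p = 0.00267, and 0.0521 without wild type replicate 2). Of the 3 endosome proteases CTSB alone passed between K11-5 and K11, where 4.1% of all tested genes passed. It was higher in K11-5, at 312.9 and 632.4 against 119.6 and 176.0, a log2 difference of 1.60 ± 0.37 (limma adjusted p = 0.0488). This call was lost without any 1 array other than K11-5 replicate 1, and the second CTSB probe set stood at 1.51 (limma adjusted p = 0.0785). Against wild type the second probe set was higher in K11-5 by 1.92 ± 0.40 (limma adjusted p = 0.0231), where the first did not pass.

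**Figure D4:**
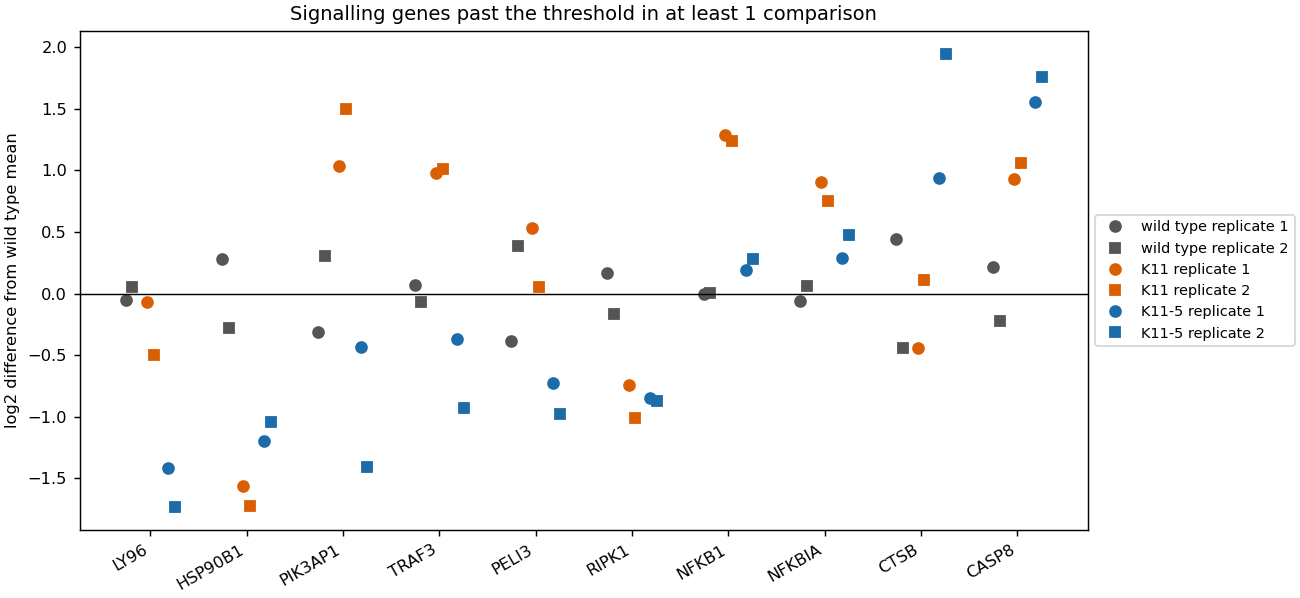
Log2 difference from the wild type mean for the 10 signalling genes past the threshold in at least 1 comparison, with a point for each array (circle for replicate 1, square for replicate 2). PIK3AP1 and NFKB1 are highest in K11, LY96 is lowest in K11-5, HSP90B1 is low in both lines and CASP8 is high in both.

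Genes that Toll-like receptor ligands are known to induce made a second list of 40, of which 31 were on the array and 24 tested. In K11 3 rose and 1 fell, in K11-5 against wild type 1 rose and 2 fell, and between K11-5 and K11 1 was higher and 1 lower, beside the 10.4%, 7.27% and 4.1% of all genes past the threshold. LITAF, a regulator of TNF production, had 1698 and 1730 for wild type, 113.6 and 231.3 for K11 and 101.2 and 15.6 for K11-5. It fell in both lines, with log2 differences of -3.39 ± 0.64 in K11 (limma adjusted p = 0.0124, lost without either wild type array or K11 replicate 1) and -5.33 ± 0.64 in K11-5 (limma adjusted p = 0.00174), and its second probe set passed in both as well. JUN, an AP-1 subunit, was at 164.2 and 89.2 for wild type, 217.1 and 179.8 for K11 and 534.5 and 651.9 for K11-5, a log2 difference of 2.27 ± 0.28 from wild type (limma adjusted p = 0.00198) and of 1.57 ± 0.28 from K11 (limma adjusted p = 0.0181, lost without either K11-5 array). PTGS2, the inducible cyclooxygenase, was at least 2.32-fold higher in K11 than in wild type, at 26.1 and 32.2 against 6.17 and 1.67 (limma adjusted p = 0.0286, lost without any 1 of these arrays). NOS2, the inducible nitric oxide synthase, rose in K11 by 1.18 ± 0.26 (limma adjusted p = 0.0221, lost without either wild type array or K11 replicate 1) and BIRC2, an inhibitor of apoptosis protein, by 0.88 ± 0.23 (limma adjusted p = 0.0462, lost without any 1 array other than K11 replicate 2). The second tested BIRC2 probe set stood at 0.11 in K11 with overlapping groups and did not pass (limma adjusted p = 0.928). SOCS1, an inhibitor of cytokine signalling, fell in K11-5 against wild type with a log2 difference of -1.84 ± 0.43 (limma adjusted p = 0.0361, lost without either wild type array or K11-5 replicate 2). CD83, a surface protein of activated B cells and dendritic cells, was lower in K11-5 than in K11 with a log2 difference of -1.87 ± 0.41 (limma adjusted p = 0.0422, lost without K11 replicate 1 or either K11-5 array). BIRC2, NOS2 and CD83 did not pass on the deposited scale or with centring.

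Markers of cell types were followed beside the receptors. Over the 10 tested of 13 B cell markers the summed signal was 5964 to 7135 for wild type, 13581 to 15324 for K11 and 3053 to 5998 for K11-5. Sums over probe sets follow their brightest members, so they give no order of the groups for the markers as a set. IGLL1 and CD74 were the 2 markers that rose in K11. IGLL1 also rose in K11-5 against wild type, so leaving it out favours a lower sum in K11-5. Leaving both out because they rose in K11 favours overlap of wild type and K11. Without them the other 8 markers summed to 3587 and 4675 for wild type, 3526 and 4906 for K11 and 1254 and 451.5 for K11-5. In K11 2 of the 10 rose (IGLL1 and CD74) and none fell, where 10.4% of all tested genes passed the threshold. In K11-5 against wild type IGLL1 rose and CD79B, EBF1 and BTK fell, where 7.27% of all genes passed. In K11-5 against K11 5 were lower, CD79B, EBF1, BTK, SYK and CD74, where 4.1% of all genes passed. At an unadjusted p under 0.05 from limma, in either direction, stood 3, 10 and 8 of the 10 in this order of comparisons. Of all genes 26.8%, 23.4% and 21.7% did. The list's median log2 differences were 0.18, -1.15 and -1.81, against 0.0054, 0.028 and 0.032 over all genes. CD74, the invariant chain of MHC class II, was at 1023 and 1244 for wild type, 5335 and 5009 for K11 and 935.1 and 248.2 for K11-5, and IGLL1, a light chain gene, at 1354 and 1216, 4720 and 5409, and 3809 and 2353. POU2AF1, a B cell coactivator, had 425.2 and 2.02 in the K11-5 arrays, against 898.7 to 1723 elsewhere. The part of these marker changes in the TLR7 and TLR2A results was not tested.

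Of macrophage and monocyte markers 8 of 13 were tested, with a summed signal of 529.9 to 657.5 for wild type, 1272 to 1412 for K11 and 990.6 to 1182 for K11-5. Their defining receptor CSF1R was at 25.5 to 49.9 in all arrays, MARCO and MRC1 ran from 1.74 to 16.5, and CEBPB, which other cells use too, rose in both lines and carried most of the sum together with SPI1. Of T cell markers 3 of 8 were tested, with sums of 1202 to 1261 for wild type, 933.5 to 1244 for K11 and 257.6 to 466.0 for K11-5. Nearly all of each sum was CD3D, which was at 1153 and 1174 in wild type and 213.2 and 397.3 in K11-5. Of the 3, CD3D alone passed, lower in K11-5 than in wild type and than in K11. Of all tested genes 7.27% and 4.1% passed in these comparisons. CD3E, CD4, CD28 and ZAP70 fell under the filter on dim probe sets. The 2 tested thrombocyte markers summed to 67.5 to 84.9 for wild type, 138.3 to 140.6 for K11 and 99.1 to 111.4 for K11-5. Of these ITGB3 rose in K11, where 10.4% of all tested genes passed the threshold. The 3 erythroid markers summed to 23.0 to 28.9, 46.0 to 51.6 and 29.4 to 41.2 in the same order. No erythroid marker was above background in all arrays, and no heterophil marker was tested.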

How the data were processed

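The deposited intensities of the authors, 1 linear value per probe set and array, were made with GCOS per the submitters' processing notes, whose version and scaling are not given in these sources. The 96 control probe sets were left out. Intensities were quantile-normalized, 2 was added and log2 taken, so fold changes of dim probe sets are understated. Probe sets with a mean of at least 7.04, the 40th percentile, were tested (23063 of 38439) with limma 3.58.1 in R 4.3.3 (lmFit, eBayes with an intensity trend, 3 residual and 7.15 prior degrees of freedom), all groups sharing 1 spread, without a replicate block. Precision is limited by the number of arrays. P-values were adjusted by the Benjamini-Hochberg method over the tested probe sets of a comparison, with a threshold of 0.05, and intervals of differences are limma's at 95%. On data simulated for K11-5 against wild type over 23063 probe sets, the changed ones were drawn only from those with a mean above background. The noise was normal with the spreads of the fit itself, so the simulation does not test the intensity trend. The fit recovered 43% of 100 given a log2 change of 1 and 84% of 100 given a change of 2, with 10 false calls. Recovery of dimmer probe sets was not simulated.

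Of the probe sets, 27168 had 1 gene symbol, 177 several and 11094 none, and 26853 were matched to RefSeq genes of GRCg7b for names and chromosomes. Background was the 95th percentile of 23 control probe sets, chosen after seeing the data. A fold against a group with both arrays below it is a lower bound, with 2 added to the brighter mean and to the background. A listed gene with several tested probe sets was counted by its brightest.

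The members and lists were chosen with earlier results of these data known. Named were all member probe sets and up to 6 signalling genes of smallest p per comparison, with every tested TIR adaptor, IRAK and TRAF gene. Up to 4 induced genes per comparison and up to 4 markers of high signal per list were named too. So were the 3 genes of most similar pattern to each called member, placeholder names skipped. HIST1H111L, PAX5, EBF1, BTK, SYK, MARCO, MRC1, TLR1A and the probe sets shared by TLR1A and TLR1B were named outside this rule, after their values were seen. Over the tested probe sets same-numbered arrays did not deviate together (correlations of 0.061, -0.036 and -0.032 between groups), and the numbers were not used as pairs. A pairing that touches few genes would not show in these correlations.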

Additional observations from a re-analysis of the deposited data

Results flagged for a closer look

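K11-5 and K11 differed past the threshold in 2 of the 11 tested member probe sets, where 3.02% of all tested probe sets passed. The probe set shared by TLR2 and TLR2A, not counted as a member, passed too. This is the comparison of the lines given above, listed again for a closer look. For TLR7 the K11 arrays lay above wild type and the K11-5 arrays below it, and K11-5 minus K11 was -3.10 on the log2 scale. For TLR2A the K11 arrays alone were high, and K11-5 minus K11 was -2.56. For the probe set shared by TLR2 and TLR2A the K11-5 arrays alone were low, with a fitted difference of -3.79 that holds a group mean below background. In each case limma tested the difference itself, between 2 arrays and 2 arrays.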

How the results depend on the processing

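Results were recomputed on the deposited scale, after centring each array on its median, with a pseudocount of 16, with no filter or a filter at the 60th percentile, without the intensity trend, with a replicate block, relative to the chromosome median and without each array in turn, and, as an alternative chosen after seeing the data, with the filter on mean log2 values. Under the filter at the 60th percentile TLR3, TLR4, TLR15, the dimmer UNC93B1 probe set and PTGS2 were no longer tested, and the probe set shared by TLR2 and TLR2A has no chromosome value. No member, signalling or induced gene past the threshold changed sign under any of these. All 5 member calls held on the deposited scale, with centring and with the block; without the intensity trend 0 members and 0 signalling genes passed in any of the 3 comparisons, where 45, 28 and 0 probe sets passed in all in the order K11-5 and then K11 against wild type, then K11-5 against K11 (member probe sets at an unadjusted p under 0.05 numbered 4, 3 and 4). With the replicate block the member counts in that order were 1, 2 and 2 and the signalling counts 4, 5 and 6, and the arrays share only a number. Without each array in turn the member counts ran from 0 to 1, 0 to 2 and 1 to 2, and the signalling counts from 2 to 6, 1 to 8 and 0 to 8; 1 of the 5 member calls (TLR7, K11-5 against K11), 2 of the 15 signalling calls (HSP90B1 in K11, LY96 in K11-5 against wild type) and 2 of the 9 calls of induced genes (JUN and LITAF in K11-5 against wild type) held in every such run. The signalling count was 5 on both the deposited scale and with centring for K11-5 against wild type, 10 and 11 for K11 against wild type, 10 with centring for K11-5 against K11, and 3 relative to the chromosome median for K11. CASP8, NFKBIA and PIK3AP1 in K11 and PELI3 between the lines were lost both on the deposited scale and with centring. Over all probe sets, the calls in that order, 1284, 1810 and 697, ran without each array in turn from 160 to 1991, 298 to 2299 and 83 to 1130, lowest without wild type replicate 2 for both comparisons with wild type and without K11-5 replicate 2 between the lines. No filter gave 428 for K11-5 against K11 and centring 1262. For K11 against wild type the deposited scale gave 2966, centring 3454 and values relative to the chromosome median 1029, which gave 663 for K11-5 against wild type. The cause was not tested for any of these.

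Signs were followed for the members, the probe set shared by TLR2 and TLR2A, and the signalling and induced genes past the threshold. Among these, signs turned only in differences of members and of the shared probe set that had not passed. Single list genes that had not passed were not followed. The median of the signalling list in K11 turned from 0.17 to -0.24 on the deposited scale and -0.18 with centring. On the deposited scale and with centring, K11 against wild type gave -0.078 and -0.014 for TLR21, -0.25 and -0.19 for the first MYD88 probe set, -0.16 and -0.092 for the brighter UNC93B1 probe set and -0.42 and -0.36 for the probe set shared by TLR2 and TLR2A, and K11-5 against K11 gave 0.094 and 0.031 for the second MYD88 probe set. In the fit on values taken relative to each array's chromosome median, TLR21 gave -0.35 in K11. Subtracting the chromosome's median difference, as above, gave -0.37. TLR3 fell under the filter without either K11-5 array and TLR4 without K11-5 replicate 2, so their ranges rest on 4 and 5 runs. Without each of the arrays that left a value, K11 against wild type ran from -0.57 to 0.95 for TLR3 and -0.19 to 1.81 for TLR4. It ran from -0.11 to 0.34 for TLR21, -0.094 to 0.29 for the brighter UNC93B1 probe set and -0.14 to 0.15 for the shared probe set. K11-5 against wild type ran from -0.67 to 0.31 for TLR2A, -0.041 to 2.25 for TLR4, and -2.14 to 0.12 and -1.47 to 0.23 for the TLR15 probe sets. K11-5 against K11 ran from -0.035 to 1.44 for TLR4 and -0.30 to 0.22 for the second MYD88 probe set. For the first MYD88 probe set it ran from -0.82 to -0.73. Signals near background limit TLR3, TLR4, TLR5 and TLR15.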
